A study of Mus musculus with 16 samples.

Results

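Adipo_24 is a cluster of 301 cells that the authors named among 24352 named cells. The libraries hold stromal vascular cells from interscapular brown fat of mice. Its members were taken from the authors' deposited cluster names, and they made up 1.24% of the named cells and 0.274% of all 109723 cells. The stromal vascular fraction holds the cells that sink after enzymatic digestion, while mature fat cells float and are taken off. The series asks how the cell makeup of the tissue changes with cold. All mice were C57BL6J without a stated genetic change, and each of 4 housing conditions had 4 libraries: thermoneutral housing at 30 °C for 1 week, room temperature at 22 °C for 1 week, 5 °C for 2 days and 5 °C for 7 days. Replicate 1 of 2-day cold held no named cells, so 15 libraries could hold Adipo_24.

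Brown adipocytes burn fuel to make heat. They carry many mitochondria, and the uncoupling protein Ucp1 in the inner mitochondrial membrane lets the proton gradient run down as heat. Cold acts on them through sympathetic nerves, and longer exposure also recruits new adipocytes from progenitors. Adipoq (the secreted hormone adiponectin), Plin1 (a coat protein of lipid droplets), Fabp4 (a fatty acid carrier), Ucp1 and Cidea (a lipid droplet protein of brown fat) are the usual markers of such cells. Gene values were not analysed here, so the name Adipo could not be checked against these markers and is used as the authors gave it. The results below rest on 4 per-cell measures: UMIs (transcript molecules counted), detected genes, the share of UMIs from mitochondrial genes, and log10 genes divided by log10 UMIs, called the log10 gene-to-UMI ratio below.

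The cells were spread very unevenly over libraries. Of the 301 cells, 208 (69.1%) came from replicate 4 of 2-day cold and 53 (17.6%) from its replicate 2. All other libraries held 11 or fewer, and 11 of the 15 libraries held any. Over the 16 libraries, cell numbers ran from 1473 to 10005 and the median UMI count per cell from 1978.5 to 9819, with the highest in replicate 1 of 2-day cold. No barcode occurred in more than 1 library within Adipo_24, and 4 of its barcodes also occurred in other named cells. Doublets, droplets that caught more than 1 cell and so can hold more UMIs, were not called here, and their part in any result was not tested. Medians over all 301 cells mostly describe replicate 4 of 2-day cold, so comparisons below give each library the same weight.

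Adipo_24 cells rose as a share of named cells after 2 days at 5 °C. At thermoneutrality replicate 1 held 4 Adipo_24 cells among 3739 named cells, or 0.107% (95% Wilson interval 0.0416 to 0.275). Thermoneutral replicates 2, 3 and 4 held 0, which allows shares of up to 0.562%, 0.216% and 0.117%. In 2-day cold the shares were 2.10% in replicate 2 (53 cells), 0.326% in replicate 3 (5 cells) and 9.81% in replicate 4 (208 cells). All 3 of these libraries lay above all 4 thermoneutral libraries, and they ranged widely among themselves. The mean was 4.08% ± 5.04 (SD, n = 3) against 0.0267% ± 0.0535 (n = 4), a log2 odds ratio of 5.26 ± 1.41 (SE; limma, adjusted p = 0.0285 over 27 named clusters). Of these 27 clusters 11.1% were called in that comparison. Replicates 3 and 4 alone gave 6.22; replicates 1 and 2 alone gave 4.35, from 1 library of 2-day cold that is assumed to vary like the other groups. The call ended without thermoneutral replicate 3 (adjusted p = 0.0787) or 4 (0.0903), without 2-day replicate 2 (0.0664) or 4 (0.0949), among cells under 20% mitochondrial UMIs (3.68 ± 1.54, limma, adjusted p = 0.110), on the arcsine scale (0.0604) and with centred log ratios (0.0539). A block for replicate number also ended it. The authors' other adipocyte cluster, Adipo_16, was called in the same comparison, at 6.98 ± 1.59 (limma, adjusted p = 0.0146). Its mean share was 8.67% against 0.0535%, so the rise was not particular to Adipo_24.

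After 7 days at 5 °C all 4 libraries held Adipo_24 cells, in small numbers. The shares were 0.255% in replicate 1 (2 cells), 0.281% in replicate 2 (3 cells), 1.8% in replicate 3 (11 cells) and 0.213% in replicate 4 (1 cell). Each of these shares of named cells lay above that of every thermoneutral library. The 0 cells in thermoneutral replicate 2 still allow up to 0.562%, which is above 3 of the 7-day shares and above 2-day replicate 3. Named cells were 784 of 7355 in 7-day replicate 1 and 3739 of 10005 in thermoneutral replicate 1. Of all cells, Adipo_24 made up 0.0272% in the former and 0.0400% in the latter, the reverse order. As a share of named cells, replicate 3 was far above replicates 1, 2 and 4. It had 611 named cells among 8570. Of all cells Adipo_24 made up 0.0272%, 0.0861%, 0.128% and 0.0679% in replicates 1 to 4, where replicate 3 was highest but not far above the rest. The mean share of named cells was 0.637% ± 0.776 (SD, n = 4). The log2 odds ratio against thermoneutrality was 3.24 ± 1.31 with an adjusted p of 0.0537 in limma, above the threshold of 0.05. In that comparison 37% of the 27 clusters were called, 33.3% as higher. Without any 1 of the 7-day libraries the p stayed above 0.05, while without thermoneutral replicate 1, room-temperature replicate 2 or 4, or 2-day replicate 3 or 4 it fell to between 0.0274 and 0.0478. Replicates 1 and 2 alone gave 1.61, and replicates 3 and 4 alone gave 4.88. Adipo_16 was called in this comparison, at 4.38 ± 1.47 (limma, adjusted p = 0.0290).

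At room temperature 3 of 4 libraries held Adipo_24 cells. Replicate 1 held 2 cells (0.119%), replicate 2 held 0 (up to 0.0975%), replicate 3 held 4 (0.209%) and replicate 4 held 8 (2.24%, Wilson interval 1.14 to 4.36). Replicate 4 lay above 2-day replicates 2 and 3 in this share, so room temperature and 2-day cold overlapped. It had 357 named cells among 2384. Of all its cells 0.336% were Adipo_24, below 2-day replicate 2 (0.579%) and above 2-day replicate 3 (0.0513%). The mean share of named cells was 0.642% ± 1.07 (SD, n = 4). The log2 odds ratio to thermoneutrality was 1.86 ± 1.31 (limma, adjusted p = 0.580), with -1.11 within replicates 1 and 2. Against room temperature the ratios were 3.40 ± 1.41 for 2-day cold (limma, adjusted p = 0.254) and 1.38 ± 1.31 for 7-day cold (limma, adjusted p = 0.393), where 7.41% of the 27 clusters were called, all as higher. The first of these passed without room-temperature replicate 4, at 4.62 (limma, adjusted p = 0.0336). Between 7-day and 2-day cold the ratio was -2.02 ± 1.41 (limma, adjusted p = 0.549). No source says that the libraries came from separate animals, so the p-values measure the spread between libraries.

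**Figure D1:**
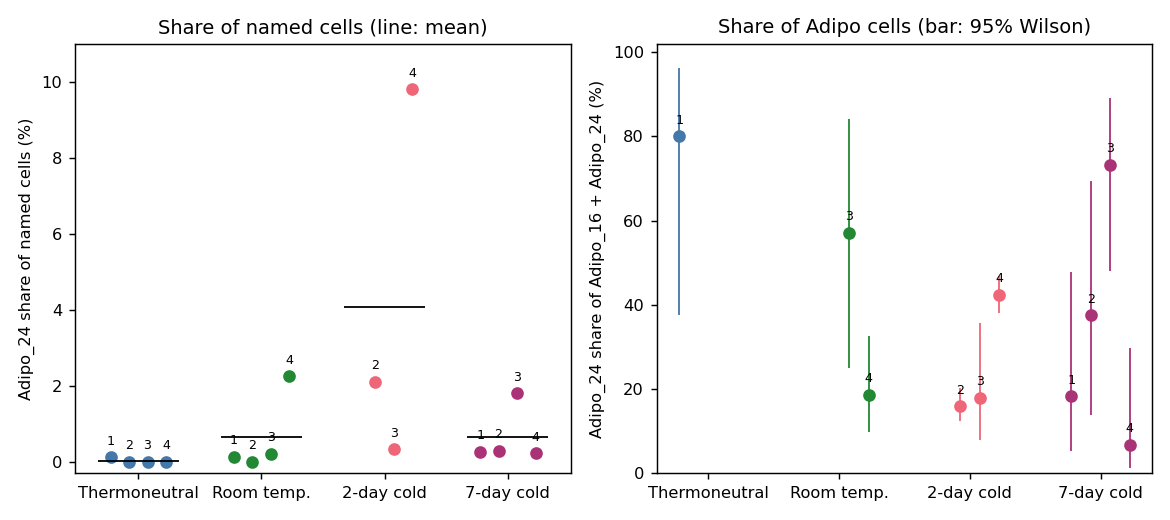
Left, Adipo_24 as a percentage of the named cells of each library, by housing, with the replicate number above each point and the group mean as a line; right, Adipo_24 as a percentage of all Adipo cells in libraries with at least 3 of them, with 95% Wilson intervals. Replicate 4 of 2-day cold stands at 9.81% on the left, and intervals on the right are wide except in replicates 2 and 4 of 2-day cold.

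The authors named a second adipocyte cluster, Adipo_16, with 662 cells in 12 libraries. The part of the Adipo cells that was Adipo_24 differed widely between libraries. In 2-day cold Adipo_24 was 15.8% of the Adipo cells in replicate 2 (53 of 335), 17.9% in replicate 3 (5 of 28) and 42.4% in replicate 4 (208 of 491). In 7-day cold it was 18.2%, 37.5%, 73.3% and 6.67% in replicates 1 to 4, of 11, 8, 15 and 15 Adipo cells. At room temperature it was 57.1% of 7 cells in replicate 3 and 18.6% of 43 cells in replicate 4, and in thermoneutral replicate 1 it was 80% of 5 cells. Of the 4 libraries of 7-day cold, 2 lay within the range of 2-day cold, 1 below and 1 above it, with means of 33.9% ± 29.2 (SD, n = 4) and 25.3% ± 14.8 (n = 3). The difference of 8.57 percentage points had a two-sided exact permutation p of 0.743, where the 35 assignments allow 0.0286 at the lowest. It was -4.56 without 7-day replicate 3.

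In UMIs and genes Adipo_24 stood at the top of the 28 named clusters. Its median cell held 48040 UMIs, followed by Adipo_16 with 27580.5, VSM_3 with 13126 and, at the other end, EC_23 with 2572.5. Its median of 4758 genes was followed by EC_11 with 3650 and VSM_3 with 3278. Of all 109723 cells, 549 held 40000 UMIs or more, and 248 of those (45.2%) were Adipo_24 while 55 were Adipo_16. The position held within libraries: in 8 of 8 libraries with at least 3 Adipo_24 cells, the cluster had the highest median UMI count of the clusters with as many cells there, and in 7 of 8 the most genes. In thermoneutral replicate 1 EC_32 had more genes, 4194 against 3938.5. The median Adipo_24 cell held 5.28 times the median UMI count of its library in thermoneutral replicate 1 and 17.9 to 24.9 times in the 7 other libraries with at least 3 cells. In mitochondrial share Adipo_24, at a median of 20.4%, came after Adipo_16 (38.6%) and VSM-AP_6 (25.2%), and before VSM_22 (10.5%) and EC_23 (9.37%). ECAP_4 was lowest at 1.47%. Within libraries Adipo_24 ranked 2 in room-temperature replicates 3 and 4 and 7-day replicate 2, 3 in 2-day replicates 2, 3 and 4 and 7-day replicate 3, and 4 in thermoneutral replicate 1. Its log10 gene-to-UMI ratio, 0.785, was the lowest of the 28, next to 0.789 in Adipo_16 and 0.853 in VSM_3; within libraries it was the lowest in 4 of 8 and the next to lowest in the other 4. That ratio is computed from the UMI count, so it is not independent of depth, and the part of depth in its order was not tested.

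**Figure D2:**
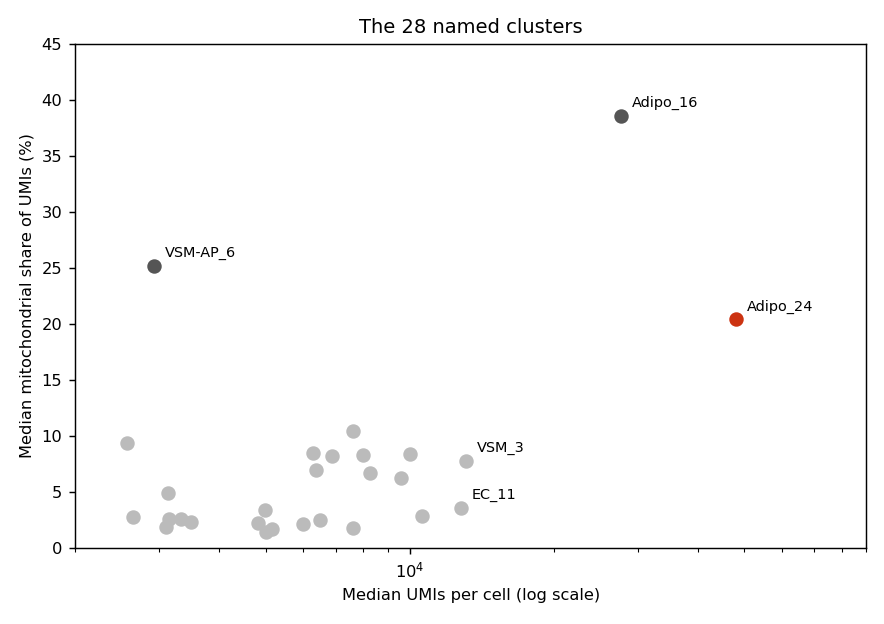
Median UMIs per cell (log axis) against median mitochondrial share of UMIs for the 28 named clusters, 1 point each. Adipo_24 lies farthest to the right at 48040 UMIs, below Adipo_16 and VSM-AP_6 in mitochondrial share and above the other 25 clusters.

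Adipo_24 cells had a lower mitochondrial share than Adipo_16 cells in every library that could be compared. The 7 libraries with at least 3 cells of each cluster were used. At room temperature the medians were 36.4% for Adipo_24 and 62.2% for Adipo_16 in replicate 3, and 38.2% and 80.8% in replicate 4. In 2-day cold they were 17.7% and 35.7% in replicate 2, 26.0% and 37.4% in replicate 3, and 20.9% and 38.9% in replicate 4. In 7-day cold they were 31.2% and 37.3% in replicate 2, and 17.2% and 47.6% in replicate 3. Both clusters were high in the room-temperature libraries, and the gap between them ran from -6.11 to -42.5 percentage points. The mean was 26.8% ± 8.69 against 48.6% ± 17.0 (SD, n = 7), a difference of -21.7 ± 12.3 (two-sided exact sign-flip permutation, 128 assignments, p = 0.0156, the smallest they can give; adjusted p = 0.0208 over 4 measures). With a minimum of 1 cell the difference was -20.1 and negative in 10 of 10 libraries. The clusters were drawn from expression of the same cells, so this test is not independent of the clustering, and the same holds for the next 3.

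UMI and gene counts went the other way. At room temperature the median UMI counts were 39828 for Adipo_24 and 28370 for Adipo_16 in replicate 3, and 71594.5 and 34368 in replicate 4. In 2-day cold they were 58006 and 26542.5 in replicate 2, 46362 and 39019 in replicate 3, and 46997 and 27218 in replicate 4. In 7-day cold they were 88350 and 2807 in replicate 2, and 59045 and 28284 in replicate 3. Adipo_24 was higher in 7 of 7 libraries, by 1.19 to 2.19 times in 6 of them and by 31.5 times in 7-day replicate 2, where 3 cells faced 5. The mean log2 difference was 1.39 ± 1.61 (SD, n = 7, exact p = 0.0156, adjusted p = 0.0208), and 0.80 without 7-day replicate 2 (exact sign-flip, adjusted p = 0.0417). Median genes per cell were 4112.5 to 6270 in Adipo_24 and 898 to 4045 in Adipo_16. They were higher in Adipo_24 in 7 of 7 libraries, by 1.16 ± 0.87 on the log2 scale (SD, n = 7, exact p = 0.0156, adjusted p = 0.0208).

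The log10 gene-to-UMI ratio had no common direction. It was 0.764 to 0.790 in the Adipo_24 medians and 0.716 to 0.869 in those of Adipo_16, higher in Adipo_24 in 4 of 7 libraries and lower in 3. The mean difference was -0.0019 ± 0.049 (SD, n = 7, exact sign-flip p = 0.875), and 0.0147 without 7-day replicate 2. The 2 room-temperature libraries, in which Adipo_16 had its highest mitochondrial shares, had the largest positive differences, 0.0418 and 0.0482.

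**Figure D3:**
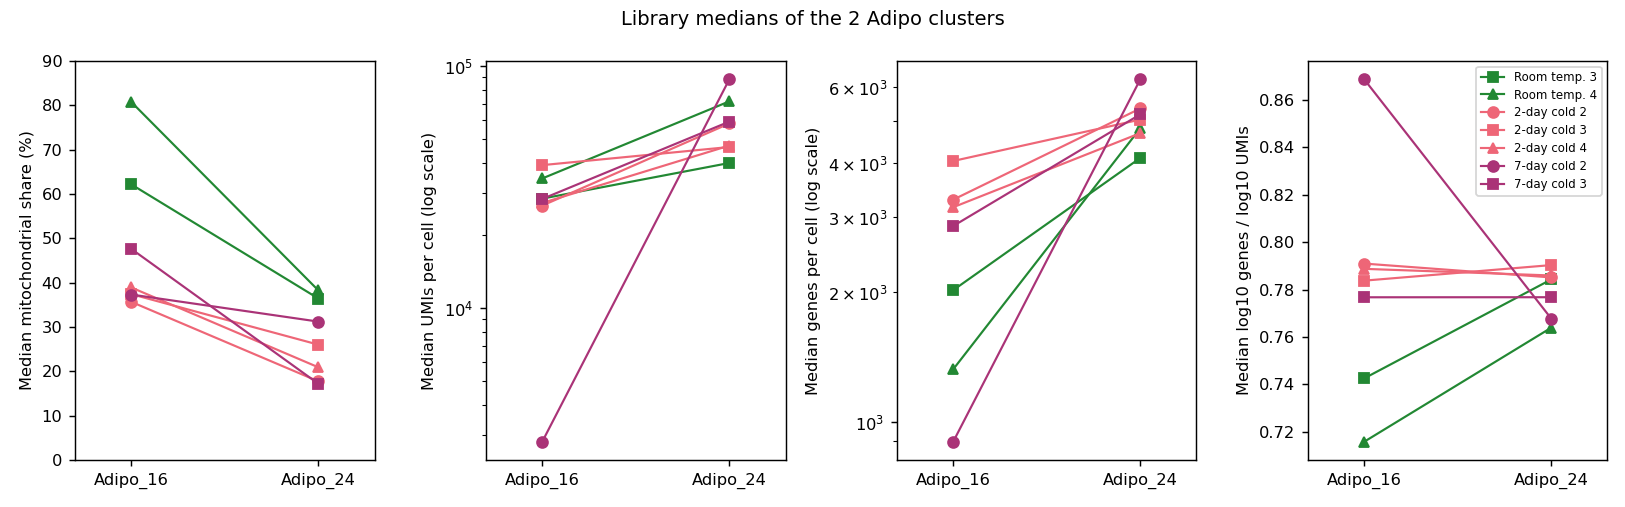
Library medians of Adipo_16 and Adipo_24 for the 4 measures, with a line joining the 2 clusters of a library, in the 7 libraries with at least 3 cells of each (UMIs and genes on log axes). Lines fall in 7 of 7 libraries for mitochondrial share, rise in 7 of 7 for UMIs and genes, and cross for the ratio; the steep lines belong to 7-day replicate 2.

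The differences in UMIs were mostly in other than mitochondrial UMIs. For each cell the UMI count was split into mitochondrial and other UMIs, a measure chosen after the 4 above had been seen. Over all cells, the median was 9827 mitochondrial UMIs in Adipo_24 and 10313.5 in Adipo_16, while other UMIs were 38555 and 15958. In 2-day replicate 4, the library with most Adipo_24 cells, mitochondrial UMIs were 9625 and 10471 and other UMIs 37517.5 and 16471. In 2-day replicate 2 they were 10234 and 9836.5, and 48346 and 17046.5. Room-temperature replicate 4 had many more mitochondrial UMIs than these in both clusters, 28559 and 28043, with other UMIs at 41072 and 5137. Other UMIs were 1.27 times those of Adipo_16 in 2-day replicate 3, 2.28 to 7.995 times in 5 libraries and 35.6 times in 7-day replicate 2. The mean log2 difference was 2.03 ± 1.59 (SD, n = 7); its sign follows from the higher UMI count and lower mitochondrial share already given for these libraries, so no test is given. Mitochondrial UMIs lay within 0.801 to 1.24 times those of Adipo_16 in 6 of 7 libraries. The exception was 7-day replicate 2 (28271 against 936), and without it the mean log2 difference was -0.014. With 7-day replicate 2 the mean was 0.69 ± 1.87.

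**Figure D4:**
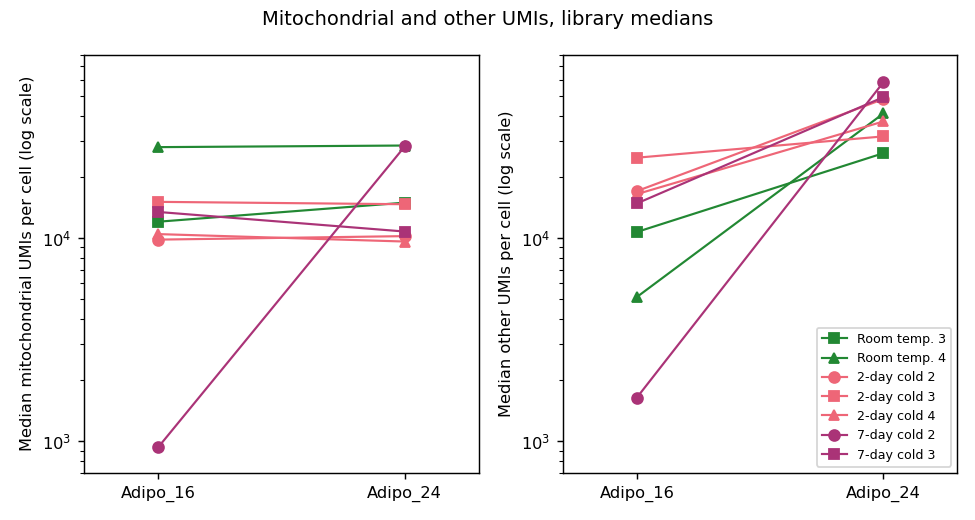
Median mitochondrial UMIs (left) and other UMIs (right) per cell in Adipo_16 and Adipo_24, both on the same log axis, with a line per library. Except in 7-day replicate 2, the lines are nearly flat on the left, and all 7 rise on the right.

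The same measures also varied together across the cells of a library. Across the 208 Adipo_24 cells of 2-day replicate 4, Spearman's rho between mitochondrial share and UMIs was -0.22, and across the 283 Adipo_16 cells of that library -0.69. In 2-day replicate 2 rho was -0.29 over 53 Adipo_24 cells and -0.84 over 282 Adipo_16 cells. The 2 quantities share the UMI count of the cell, and cells of a library are not independent replicates. Over all cells, the 10th and 90th percentiles of Adipo_24 were 34138 and 63452 UMIs, and 15.3% and 27.9% mitochondrial UMIs. For Adipo_16 they were 15844 and 38770.1 UMIs, and 27.3% and 62.7%. At 20% mitochondrial UMIs or more lay 159 Adipo_24 cells (52.8%) and 99.2% of the Adipo_16 cells. By library the number at or above 20% was 15 of 53, 5 of 5 and 120 of 208 in 2-day replicates 2, 3 and 4. It was 1 of 2, 2 of 3, 2 of 11 and 1 of 1 in 7-day replicates 1 to 4. At room temperature it was 2 of 2, 4 of 4 and 7 of 8 in replicates 1, 3 and 4, and in thermoneutral replicate 1 it was 0 of 4. Libraries of 1 condition thus differed among themselves in both cold groups.

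**Figure D5:**
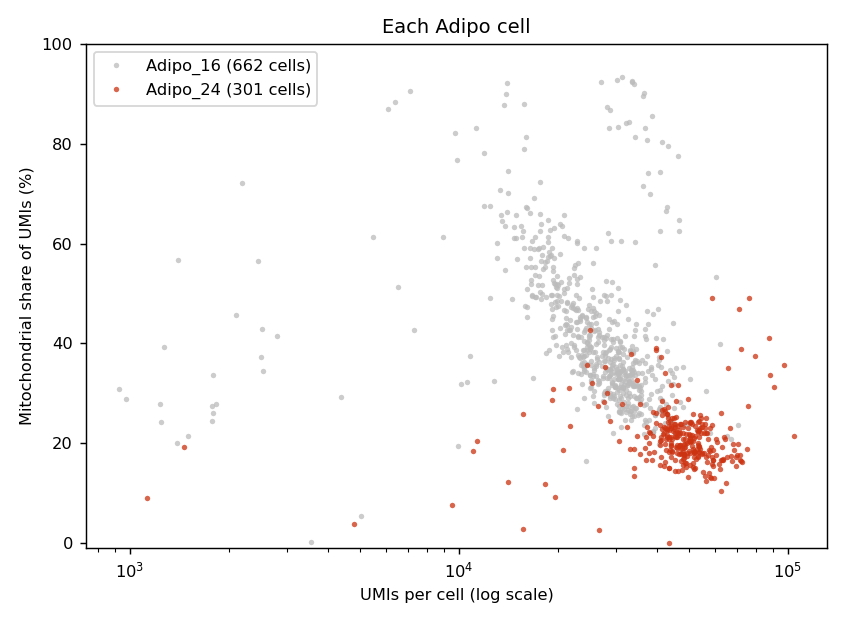
UMIs per cell (log axis) against the mitochondrial share of UMIs, 1 point per cell, for the 301 Adipo_24 and 662 Adipo_16 cells of all libraries. Most Adipo_16 cells run down a curve from high shares to about 40000 UMIs. Those of room-temperature replicate 4, with medians of 34368 UMIs and 80.8%, mostly lie above it, and some others have few UMIs. Most Adipo_24 cells sit together at the lower right end of the curve, around the medians of 48040 UMIs and 20.4%.

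A few members lay outside that group. Under 10000 UMIs there were 4 cells, 1 in 2-day replicate 4 (4814 UMIs) and 1 each in 7-day replicates 1 (1459), 2 (9565) and 3 (1129). Under 5% mitochondrial UMIs there were also 4 cells, 2 of them in thermoneutral replicate 1. That library held the 4 thermoneutral members, which had a median of 7.29% mitochondrial UMIs (2.54% to 18.0%) and 22526 UMIs (15726 to 37813). They were lower in both than the library medians of 2-day cold, 17.7% to 26.0% and 46362 to 58006 UMIs.

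Between housing conditions the members could be compared over libraries only with a minimum of 1 cell, since no pair of conditions had 3 libraries each with 3 or more Adipo_24 cells. The median mitochondrial share was 35.4% ± 3.43 (SD, n = 3) at room temperature, with 31.6%, 36.4% and 38.2% in replicates 1, 3 and 4. It was 21.5% ± 4.18 (n = 3) after 2 days of cold, and 30.1% ± 9.83 (n = 4) after 7 days, where replicates 1 and 4 stood at 31.0% and 41.1%. The 3 room-temperature libraries lay above the 3 of 2-day cold, a difference of -13.9 percentage points and its p by exact permutation was 0.1, the lowest that 20 assignments allow (adjusted p = 0.2 over 4 measures). For 7-day against 2-day cold it was 8.59 (exact p = 0.2, adjusted p = 0.8) and against room temperature -5.29 (exact p = 0.486, adjusted p = 0.886). Median UMIs ran from 39828 to 86690 at room temperature, from 46362 to 58006 in 2-day cold and from 13233.5 to 88350 in 7-day cold, with exact permutation p-values of 0.4 to 1 for the 3 pairs of conditions. Those for genes were 0.886 to 1 and those for the ratio 0.1 to 1 (exact permutation).

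VSM-AP_6, with 1175 cells, was the other named cluster with many cells of high mitochondrial share. Adipo_24 had no common direction against it in that share, but was higher in UMIs and genes throughout. In the 8 libraries with at least 3 cells of each, the mitochondrial medians were 24.4% ± 10.6 and 27.97% ± 7.06 (SD, n = 8), with Adipo_24 lower in 5 and higher in 3 (difference -3.61 ± 12.8, exact sign-flip p = 0.445). The 3 libraries with the opposite sign were room-temperature replicates 3 and 4 and 7-day replicate 2. Adipo_24 held 7.08 to 24.3 times the UMIs and 2.28 to 6.74 times the genes of VSM-AP_6, higher in 8 of 8 libraries. The mean log2 differences were 3.80 ± 0.53 for UMIs and 2.11 ± 0.47 for genes, and the log10 gene-to-UMI ratio differed by -0.083 ± 0.016 (SD, n = 8). Each of these 3 had an exact p of 0.00781, the smallest possible with 256 assignments (adjusted p = 0.0104). Both clusters were drawn from expression of the same cells, so these tests and that of mitochondrial share are not independent of the clustering. VSM-AP_6 was chosen for its mitochondrial share in earlier results of these data. Median mitochondrial UMIs per cell were 763 in VSM-AP_6 against 9827 in Adipo_24.

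Nearly all Adipo_24 cells were called G1, the phase call of every cell whose S and G2M scores are both below 0. In the table of named cells 5 of 301 (1.66%) were called S and none G2M, the lowest share called S or G2M of the 28 clusters. In the table of all cells 1 of the 301 was called S. In Adipo_16 12.4% were called S or G2M in the table of named cells. By library, Adipo_24 was lower than Adipo_16 in 5 of 7 and equal at 0 in room-temperature replicate 3 and 2-day replicate 3. The mean difference was -19.1 ± 27.97 percentage points (SD, n = 7, exact sign-flip p = 0.0625) with calls of the table of named cells and -15.3 ± 21.7 (exact p = 0.0625) with those of the table of all cells. Both means lean on 7-day replicate 2, without which they were -8.99 and -7.84. UMI counts differ between the clusters in the same libraries, and their part in the calls was not tested. Phase scores and clusters both come from expression of the same cells, so these tests are not independent of the clustering.

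In each of the authors' clusterings the larger part of the cells fell in 1 cluster, with or without Adipo_16. In the table of all cells at resolution 1.8, 276 of the 301 fell in cluster 45 and 19 in cluster 11, where 381 Adipo_16 cells also lay. The 276 had a median of 20.1% mitochondrial UMIs and the 19 a median of 34.2%, with 48343.5 and 45848 UMIs. Cluster 45 held 366 cells, among them 7 Adipo_16 cells and 81 without a name. At the coarsest resolution, 0.1, 299 Adipo_24 and 644 Adipo_16 cells shared cluster 3. In the table of named cells the 301 were a cluster of their own at resolutions 0.8, 1.2, 1.4 and 1.8. At 0.4 all 301 shared a cluster with 469 Adipo_16 cells. At 0.6 and 1, 238 stayed apart and 63 joined the cluster that held all 662 Adipo_16 cells. The 63 had a median of 23.99% mitochondrial UMIs against 19.4% in the 238. Their median UMI counts were 47936 and 48158.5 over all cells, but by library they differed in either direction, from 50932 against 58728.5 in 2-day replicate 2 to 62800 against 34878 in 2-day replicate 3. The cells that joined were 17 of 53, 3 of 5 and 27 of 208 in 2-day replicates 2, 3 and 4, and 3 of 3 and 0 of 11 in 7-day replicates 2 and 3. They were 3 of 4 and 6 of 8 in room-temperature replicates 3 and 4, and 1 of 4 in thermoneutral replicate 1. In all 6 libraries that held both and at least 3 Adipo_24 cells, the median mitochondrial share was higher in the cells that joined Adipo_16.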

How the data were processed

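Interscapular brown adipose tissue was dispersed with enzymes, the floating adipocyte layer, red blood cells and dead cells were taken off, and Chromium Single Cell 3' v3 libraries were made, per the labels' protocols. STAR and Cell Ranger 3.0.1 with mm10 are listed in the submitters' processing notes. For cell filters, integration and clustering, the parameters were not given in the sources used here. Only per-cell annotations were used. The authors deposited UMI and gene numbers as whole-number counts without normalisation, the mitochondrial share as a fraction of the cell's UMIs (given here in percent), and the log10 gene-to-UMI ratio as a fraction. Phase scores and calls, and cluster numbers and names, are also as the authors deposited them. The product of mitochondrial fraction and UMI count was whole within 0.01 in 100% of cells, which gave the mitochondrial UMIs.

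The library was the replicate. Shares of the 27 named clusters that averaged 10 or more cells per library, with 0.5 cells added, were fitted on the log2 odds scale with limma 3.58.1 (R 4.3.3), 4 groups in one fit, Benjamini-Hochberg adjusted within a contrast, threshold 0.05; edgeR 4.0.16 was an alternative. Library medians (at least 3 cells) were compared by exact permutation: sign flips between clusters of a library, or assignments of libraries to conditions. UMIs and genes were compared as log2 of the medians. Tests were two-sided. Intervals and limits from 0 cells (3 cells of the total) cover counting error alone. The sign-flip test and the limma fit were tested on simulated data, and the permutation between conditions was not. The clusters named are Adipo_24, Adipo_16 and VSM-AP_6, and in an order of all clusters those nearest to Adipo_24, the first and the last. The members and comparisons were chosen with earlier results of these data known. With a minimum of 3 cells the planned comparison of Adipo_24 medians between conditions had no pair with 3 libraries each, so that comparison is given with a minimum of 1 cell. Thinning of cells to a common UMI number, which needs gene counts, was not done.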

Additional observations from a re-analysis of the deposited data

Results flagged for a closer look

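Of 4 libraries per condition, 1 stood apart from the other 3 in the Adipo_24 share of named cells at thermoneutrality (replicate 1, 0.107%, the sole library with any), at room temperature (replicate 4, 2.24%) and in 7-day cold (replicate 3, 1.8%). As a share of all cells, 7-day replicate 3 held 0.128%, against 0.0272% to 0.0861% in the other libraries of 7-day cold. The limits for 0 cells in thermoneutral replicates 2, 3 and 4 (0.562%, 0.216% and 0.117%) all lie above 0.107%, so at this depth replicate 1 cannot be told from them. Chance would mark about 1 in 20 such groups if the shares were normally distributed, which was not tested for these small cell numbers. At thermoneutrality the other 3 libraries held 0, so any Adipo_24 cell in replicate 1 would have marked it.

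In 7-day replicate 2, where 3 Adipo_24 cells were set against 5 Adipo_16 cells, the differences between the clusters lay far from those of the other 6 libraries. They were 4.98 in log2 UMIs, 4.92 in log2 mitochondrial UMIs and -0.101 in the log10 gene-to-UMI ratio. Its Adipo_16 cells had a median of 2807 UMIs and its Adipo_24 cells 88350.

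Replicate 1 of 2-day cold, which enters no comparison of named cells, held 72 of its 10001 cells (0.720%) in cluster 45 of all cells, the cluster with 276 of the 301 Adipo_24 cells. Thermoneutral libraries held 0 to 1 cell there, at most 0.00999%, and the other 2-day libraries held 55 (0.601%), 4 (0.0410%) and 207 (2.07%). The 72 cells had a median of 17.7% mitochondrial UMIs and 34566 UMIs, against 17.8% to 23.8% and 41382.5 to 56269 in cluster 45 of the other 2-day libraries. Their library had the highest median UMI count over all its cells, 9819. It differed far more in cluster 11 of all cells, where 381 Adipo_16 cells lay. Of the 2961 cells of that cluster, 2559 came from this library, 25.6% of its cells. In 2-day replicates 2, 3 and 4 cluster 11 held 160 (1.75%), 19 (0.195%) and 183 (1.83%).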

How the results depend on the processing

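The share of Adipo_24 after 2 days of cold against thermoneutrality (log2 odds ratio 5.26) kept its direction in 29 of 29 settings and its call in 21. It lost the call on the arcsine scale (0.166, limma, adjusted p = 0.0604), with centred log ratios (4.41, 0.0539), among cells under 20% mitochondrial UMIs (3.68, 0.110) and with a replicate block (5.28, 0.0644). Leaving out 1 library gave 4.05 to 6.52; its size moved with the cells added, 7.00 with 0.1 and 4.52 with 1. For 7-day cold against thermoneutrality (3.24) the share passed with 0.1 cells added (4.79), with the replicate pairs (1 and 2, 3 and 4) as a covariate (3.24) and in libraries of 3000 cells or more (3.74), and ranged from 2.60 to 3.64 without 1 library. Within replicates 1 and 2, 2-day cold (5.46) and 7-day cold (2.72) passed against room temperature, the former with 1 library of 2-day cold, assumed to vary like the other groups; their ranges without 1 library were 2.19 to 4.65 and 0.193 to 2.60. Room temperature against thermoneutrality changed sign among cells under 20% mitochondrial UMIs (-0.065) and within replicates 1 and 2 (-1.11), with 0.644 to 3.05 without 1 library. For 7-day against 2-day cold the range was -3.27 to -0.810. Same-numbered libraries had a median correlation of 0.22, against -0.036 in other pairs, and 7 of 15 libraries correlated best with one of their own number. Their correlation was above 0.1 in 12 of 21 pairs and not in all, so the numbers were not taken to pair the samples. With the block no other call of the Adipo_24 share changed. Over the 29 settings (27 clusters each, 28 without a minimum of cells) the number called ran from 0 to 7 (3 as reported) for 2-day cold against thermoneutrality, 0 to 17 (10 as reported) for 7-day cold against it, 0 to 13 (2 as reported) for 7-day cold against room temperature, and 0 to 2 (0 as reported) in the 3 other comparisons.

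Against Adipo_16, a minimum of 5 or 10 cells left 4 or 2 libraries, and cells of 23457 to 43467.5 UMIs left 2, too few to pass the exact test. The differences were then -22.5, -18.0 and -9.49 percentage points in mitochondrial share, 0.81, 0.96 and 0.29 in log2 UMIs, and 0.87, 0.64 and 0.20 in log2 genes, all in the reported direction. The minimum of 10 cells and the UMI range left the same 2 libraries, and their mitochondrial gap was smaller within the range. It was -5.85 in 2-day replicate 2, on 5 Adipo_24 cells, and -13.1 in replicate 4, on 56. A range set on UMIs by itself limits the differences in UMIs and genes. Without 1 library the differences in mitochondrial share, log2 UMIs and log2 genes ranged from -24.4 to -18.3, 0.80 to 1.58 and 0.89 to 1.31, and all passed. The difference in the log10 gene-to-UMI ratio changed sign with a minimum of 5 cells (0.0115), with means (0.0065) and in that UMI range (0.00021), and ranged from -0.0102 to 0.0147 without 1 library. Mitochondrial UMIs changed sign with 5 cells (-0.019) and ranged from -0.014 to 0.86; other UMIs ranged from 1.51 to 2.31. Cells under 20% mitochondrial UMIs included 5 Adipo_16 cells, which gave no value. The phase difference ranged from -22.3 to -8.99 and from -17.8 to -7.84 in the 2 tables, and passed in the table of named cells with a minimum of 1 cell (-25.0). The settings for VSM-AP_6 and for the split of UMIs were chosen after seeing the data. Against VSM-AP_6 a minimum of 5 or 10 cells left 5 or 3 libraries, with 3.85 and 4.04 for UMIs, 2.14 and 2.43 for genes and -0.0840 and -0.0808 for the ratio; the ranges without 1 library were 3.68 to 3.94, 2.02 to 2.24, -0.0871 to -0.0800 and, for mitochondrial share, -6.52 to -1.49.

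The Adipo_24 part of Adipo cells ranged from -4.56 to 17.7 percentage points (7-day minus 2-day cold). Between conditions the Adipo_24 medians ranged, without 1 library, as follows for 2-day cold against room temperature, 7-day cold against room temperature and 7-day against 2-day cold: -16.1 to -12.0, -8.94 to -0.971 and 4.94 to 12.9 percentage points in mitochondrial share; -0.65 to -0.090, -0.67 to 0.30 and -0.30 to 0.62 in log2 UMIs; -0.13 to 0.18, -0.36 to 0.17 and -0.37 to 0.15 in log2 genes; and 0.0102 to 0.0204, -0.0061 to 0.0258 and -0.0207 to 0.0112 in the ratio. With means in place of medians the first of the gene differences was -0.080. The cause of these changes was not tested. Most libraries outside 2-day cold held under 5 Adipo_24 cells, which limits every value given for them.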
